A study of Homo sapiens with 9 samples.

Results

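The 10 genes described here are the core of the NRF2 antioxidant response: the transcription factor NRF2 itself (gene NFE2L2), its inhibitor KEAP1, and 8 of the best known targets, NQO1, HMOX1, GCLC, GCLM, TXNRD1, SRXN1, SLC7A11 and TXN. They were taken by name from the 23619 genes of each library, with earlier results of these data known. All 10 passed the filter on low counts. RNA sequencing was done in RKO, a human colorectal cancer cell line, in 2 samples of parental cells with intact DIP2C, in the DIP2C-/- clones E3 and C10, and in the DIP2C+/- clones G1-A5, A9-A12, A6-C9, F6-A7 and H9-A4. The groups follow the labels, which list more DIP2C+/- clones than the study describes. Cells of all 3 groups were grown for 48 h without further treatment, and each clone is 1 library. The study deleted part of exon 9 of DIP2C by viral gene targeting, Geneticin selection, single cell cloning and removal of the selection cassette with Cre. The parental samples went through none of these steps, and no targeted clone with intact DIP2C was analysed here, so genotype and clone history cannot be told apart. The study derived the DIP2C-/- clones from a DIP2C+/- clone by another round of targeting, whereas the tests treat every clone as independent. Nothing states that the parental samples came from separate cultures, and the p-values therefore measure only the spread between these samples.

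NRF2 is held low in resting cells by KEAP1, which binds it and hands it to a CUL3 ubiquitin ligase for destruction. Oxidants and electrophiles modify KEAP1, NRF2 then accumulates, enters the nucleus, pairs with a small MAF protein and binds the antioxidant response element of its target genes. Much of this control acts on the NRF2 protein, so the mRNA of NFE2L2 and KEAP1 need not follow the activity of the pathway. The targets serve the glutathione system (GCLC, GCLM, SLC7A11), the thioredoxin system (TXN, TXNRD1, SRXN1), quinone reduction (NQO1) and haem breakdown (HMOX1). Several are shared with other regulators: HMOX1 is also repressed by BACH1, and SLC7A11 is also a target of ATF4 and is repressed by p53.

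The core of the antioxidant response element is TGACNNNGC, or GCNNNGTCA when it lies on the opposite strand, and it was looked for on both strands in the RefSeq promoters (GRCh38.p14, 250 bases before to 50 after the gene start) of the 8 of the 10 genes that could be matched. HMOX1 and SLC7A11 were not matched. The core was present for 2 of these 8 genes (25%), GCLM and TXNRD1, against 13.6% of the 27305 promoters and 14.9% of the 10859 promoters of genes that were tested. Among the other listed genes, which include targets of ATF4, it was present in 12 of 57 promoters (21.1%), SLC3A2 and GSTP1 among them. The sites are shown for these 4 genes because their levels are described below, with the core in capitals and 20 bases on each side, written 5′ to 3′ on the strand of the gene.
GCLM, chr1:93909436-93909484, minus strand, core 34 bases before the start: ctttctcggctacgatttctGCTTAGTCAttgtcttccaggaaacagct
TXNRD1, chr12:104215660-104215708, plus strand, core 99 bases before the start: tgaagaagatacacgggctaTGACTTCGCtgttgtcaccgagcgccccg
SLC3A2, chr11:62881642-62881690, plus strand, core 37 bases before the start: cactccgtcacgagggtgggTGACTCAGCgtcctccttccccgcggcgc
GSTP1, chr11:67583726-67583774, plus strand, core 66 bases before the start: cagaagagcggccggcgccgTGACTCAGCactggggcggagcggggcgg
TXNRD1 held another match, on the opposite strand, 8 bases before its start. A match of these letters is a description of the window and not a measured binding site. A gene without a match may hold the core outside the window, which was not searched.

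The deposited estimated counts summed to 14772593 to 21486483 per library, with a median of 18751852. Levels are given in CPM, a count relative to the total of its library, after TMM scaling of that total, on which 3 counts correspond to 0.14 to 0.203 CPM, so every level of the 10 genes was far above what sampling of reads limits. DIP2C, the targeted gene, was measured over its whole length, most of which lies outside the deletion, at 61.0 and 70.9 CPM in the parental samples, 17.4 in E3, 22.8 in C10, and 41.7 in G1-A5, 38.9 in A9-A12, 33.6 in A6-C9, 47.0 in F6-A7 and 56.3 in H9-A4. All 7 clones lay below both parental samples, and H9-A4 lay nearest to them. H9-A4 also stood apart from the other clones in many genes, and the fits were therefore made with and without it. H9-A4 was thus singled out by levels in these same data. The p-values and counts without it do not allow for that choice and are descriptions. Of 5 epithelial markers 3 reached 1 CPM in some library, and CDX2 was the 1 of 5 intestinal markers that did. EPCAM did so only in the first parental sample (1.05) and H9-A4 (3.79). That level was also reached by 4 of 5 fibroblast and 3 of 4 endothelial markers, so it does not separate cell types. Summed in the parental samples, epithelial markers had 230.2 and 287.2 CPM, fibroblast markers 4.90 and 6.53, and endothelial markers 2.15 and 2.61. Most of the epithelial sum was KRT18, with 207.9 and 265 CPM in these samples. KRT19 had 0.11 and 0.052 CPM there, CDH1 0.33 and 0.31, and EPCAM 1.05 and 0.37. The epithelial sum therefore does not describe the list as a whole.

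With all 9 libraries, 0 of the 10 genes passed edgeR's quasi-likelihood test at a Benjamini-Hochberg adjusted p-value under 0.05 in any comparison. The background was low as well: 0.18% of the 15532 genes tested passed for the average of the 7 clones against parental RKO, 0.00644% for DIP2C-/- against parental, 0.0966% for DIP2C+/- against parental and 0% for DIP2C+/- against DIP2C-/-, where DESeq2 called 6 genes. At an unadjusted p under 0.05, edgeR had 1 of the 10 genes in each comparison with parental RKO and 0 between the genotypes, while 13.4%, 12.7%, 11.6% and 5.57% of all genes tested passed at that level in the same order. DESeq2 also called 0 of the 10, while it called 304, 297, 193 and 6 of the 15532 genes in the same order. It had 2, 1, 2 and 2 of the 10 at an unadjusted p under 0.05. The share of all genes at that level was not counted for DESeq2. Without H9-A4, HMOX1 was called higher in every comparison with parental RKO and the other 9 genes in none, against backgrounds of 8.95% for the average of the clones, 4.76% for DIP2C-/- and 7.95% for DIP2C+/-. Between DIP2C+/- and DIP2C-/- the count without H9-A4 stayed at 0 of 10 beside a background of 0%, with 3 of the 10 and 7.1% of all genes tested at an unadjusted p under 0.05. The common biological coefficient of variation was 0.298 with H9-A4 and 0.242 without it.

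As a list, the 10 genes had a median near that of all genes in the average of the clones. Their median log2 change for the average of the clones was 0.02 beside 0.02 for all genes tested, and 0.05 beside 0.01 without H9-A4. For DIP2C-/- against parental it was -0.05 beside 0.02, with 4 genes higher and 6 lower, and for DIP2C+/- it was 0.10 beside 0.02, with 7 higher and 3 lower. Between DIP2C+/- and DIP2C-/- clones 9 of the 10 estimates were higher in DIP2C+/-, with a median of 0.25 beside 0.01 for all genes tested, and GCLM was the exception; none of these differences was called. In CPM, 0 of the 10 had all 7 clones on 1 side of both parental samples, while 11% of the genes tested did. HMOX1 and SRXN1, 2 of the 10, had the 6 clones other than H9-A4 above both parental samples, while 23.9% of the genes tested had these 6 clones on 1 side.

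HMOX1, which encodes haem oxygenase 1, the inducible enzyme that opens haem to biliverdin, iron and carbon monoxide, showed the largest change of the 10. The gene lies on chromosome 22 from 35776354 to 35790207 (GRCh37, plus strand). It measured 39.1 and 32.3 CPM in the parental samples, 74.2 in E3, 141.8 in C10, 227 in G1-A5, 165.4 in A9-A12, 202.4 in A6-C9, 126.2 in F6-A7 and 24.9 in H9-A4. The 6 clones other than H9-A4 did not overlap with the parental samples, and H9-A4 lay below both. In bulk RNA, more cells with a transcript and more of it per cell cannot be told apart. The group means were 35.7 ± 4.76 in parental RKO (SD, n = 2), 108 ± 47.9 in DIP2C-/- (SD, n = 2) and 149.2 ± 79.3 in DIP2C+/- (SD, n = 5), or 180.3 ± 44.1 in DIP2C+/- without H9-A4 (SD, n = 4).

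In edgeR's fit of all 9 libraries HMOX1 had a log2 fold change of 1.93 ± 0.65 (SE) for the average of the clones, with an adjusted p of 0.306, 1.60 in DIP2C-/- (adjusted p = 0.397) and 2.06 in DIP2C+/- (adjusted p = 0.382). Without H9-A4 the same edgeR test gave 2.09 ± 0.29 (SE) for the average, a 4.26-fold rise with an adjusted p of 0.00126. The DIP2C-/- estimate was 1.60 in both fits, because H9-A4 enters it only through the spread, and its edgeR adjusted p went to 0.0164. With all libraries but C10 the DIP2C-/- estimate was 1.015, from E3 alone. For DIP2C+/- the log2 fold change without H9-A4 was 2.34, with an edgeR adjusted p of 0.000917. Leaving out any other single library left HMOX1 uncalled for the average, with edgeR adjusted p-values from 0.328 to 0.815, as did DESeq2 with all 9 libraries (adjusted p = 0.125). The difference between DIP2C+/- and DIP2C-/- was 0.74 on the log2 scale without H9-A4 and was not called (edgeR adjusted p = 0.679).

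**Figure D1:**
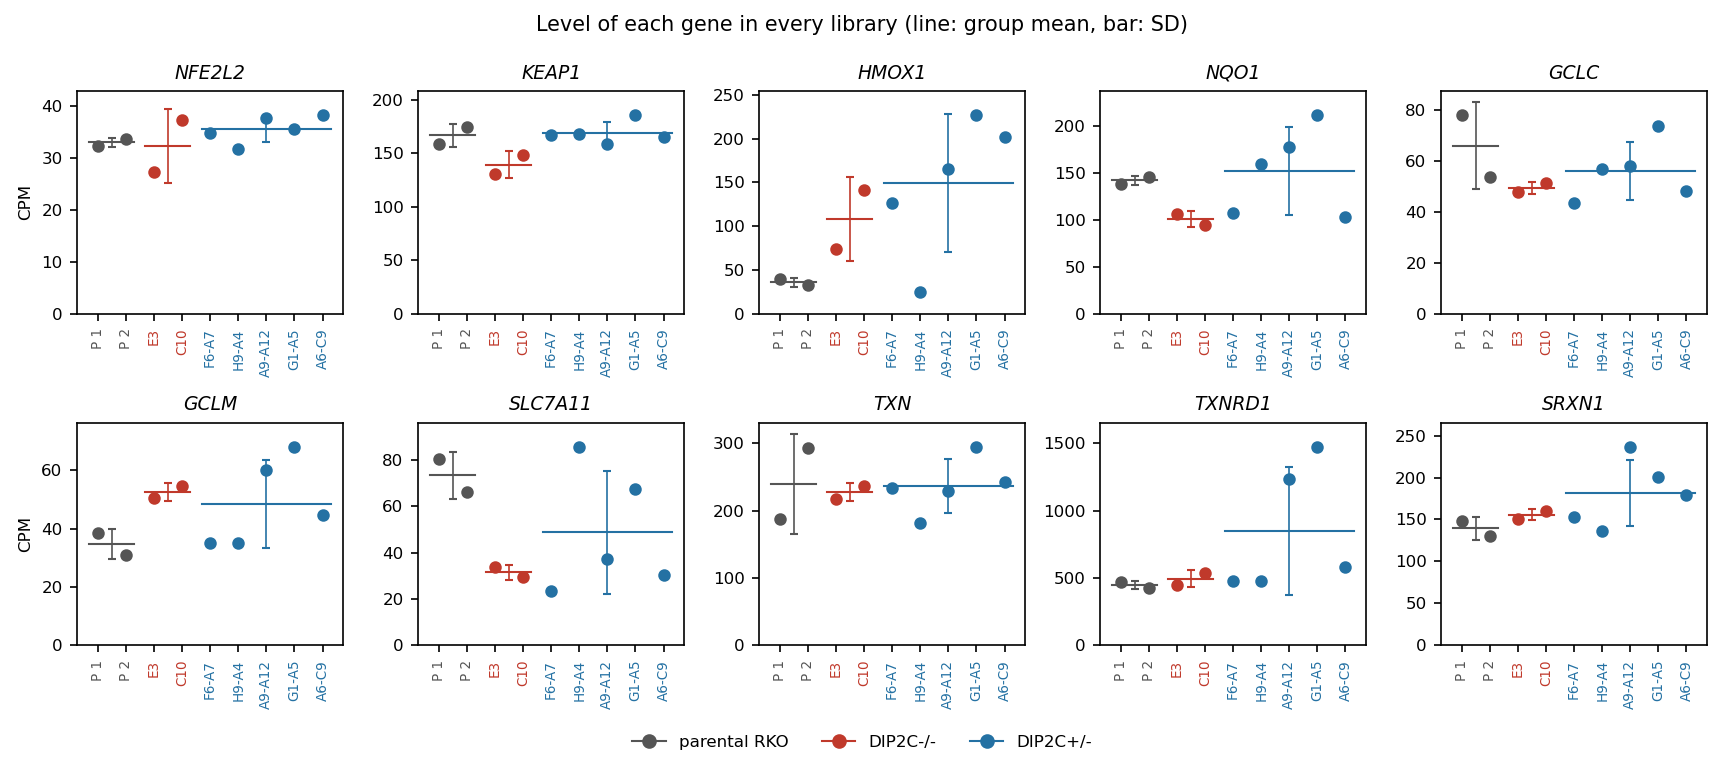
CPM of each of the 10 genes in every library, with parental RKO in grey, DIP2C-/- in red and DIP2C+/- in blue; horizontal lines are group means and bars are SD. HMOX1 was above both parental samples in every clone but H9-A4, TXNRD1 was high in A9-A12 and G1-A5, and NFE2L2 and KEAP1 varied little.

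The regulators NFE2L2 and KEAP1 changed little. NFE2L2 measured 32.4 and 33.6 CPM in the parental samples, 27.3 in E3, 37.4 in C10, 35.6 in G1-A5, 37.7 in A9-A12, 38.3 in A6-C9, 34.8 in F6-A7 and 31.8 in H9-A4. The clones lay on both sides of the parental samples, and the highest library was 1.40 times the lowest. For the average of the clones the log2 fold change was 0.07 ± 0.16 (SE), with an edgeR adjusted p of 0.891. On its chromosome 2 locus, 178083395 to 178257484 (GRCh37, minus strand), exons of NFE2L2 overlap those of HNRNPA3 and AGPS on the opposite strand, and whether the libraries kept strand is not given in the sources used here.

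KEAP1 measured 159.2 and 174.4 CPM in the parental samples, 130.6 in E3 and 148.3 in C10, and 185.9 in G1-A5, 158.4 in A9-A12, 164.9 in A6-C9, 167.1 in F6-A7 and 168.1 in H9-A4. Both DIP2C-/- clones lay below both parental samples, while the DIP2C+/- clones lay around them. In DIP2C-/- the log2 fold change was -0.26 ± 0.15 (SE), with an edgeR adjusted p of 0.490. DIP2C+/- had 0.02, which took the other sign, -0.03, when libraries were scaled by their totals alone.

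In the glutathione branch, SLC7A11 moved most. It encodes the cystine carrier of the xc- exchanger, which brings in the cystine from which glutathione is made. Its locus on chromosome 4 runs from 139085251 to 139163503 (GRCh37, minus strand), and it shares exon positions with SLC7A11-AS1 on the other strand. It measured 80.5 and 66.3 CPM in the parental samples, 33.9 in E3, 29.3 in C10, 37.3 in A9-A12, 30.2 in A6-C9 and 23.6 in F6-A7, but 67.3 in G1-A5 and 85.8 in H9-A4. In 5 of the 7 clones the level was below both parental samples, G1-A5 lay between them and H9-A4 above them. The average of the clones had a log2 fold change of -0.77 ± 0.39 (SE) with H9-A4 (edgeR adjusted p = 0.417) and -0.998 ± 0.30 (SE) without it (edgeR adjusted p = 0.0626).

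GCLC and GCLM encode the catalytic and the modifier subunit of glutamate-cysteine ligase, the rate-limiting enzyme of glutathione synthesis. GCLC measured 78.2 and 53.9 CPM in the parental samples, 47.9 in E3, 51.3 in C10, 73.8 in G1-A5, 58.1 in A9-A12, 48.4 in A6-C9, 43.6 in F6-A7 and 57.0 in H9-A4. GCLM measured 38.4 and 31.1 CPM in the parental samples, 50.4 in E3, 54.7 in C10, 68.2 in G1-A5, 60.2 in A9-A12, 44.5 in A6-C9, 35.0 in F6-A7 and 35.0 in H9-A4. The subunits did not move together: 4 clones had GCLC below both parental samples and 0 had it above them, whereas 5 clones had GCLM above both and 0 had it below. The log2 fold changes for the average of the clones were -0.28 ± 0.20 (SE) for GCLC and 0.51 ± 0.26 (SE) for GCLM, with edgeR adjusted p-values of 0.559 and 0.421. Without H9-A4 GCLM had 0.59 ± 0.23 (SE) and an edgeR adjusted p of 0.156.

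In the thioredoxin branch the level of TXNRD1, the NADPH-dependent reductase that recycles thioredoxin, set A9-A12 and G1-A5 apart. It is encoded on chromosome 12 from 104609557 to 104744085 (GRCh37, plus strand). TXNRD1 measured 468.9 and 425.6 CPM in the parental samples, 450.4 in E3, 538.5 in C10, 579.7 in A6-C9, 473.7 in F6-A7 and 474.5 in H9-A4, but 1475 in G1-A5 and 1236 in A9-A12. These 2 clones were more than 2-fold above every other library, and the 7 others lay between 425.6 and 579.7 CPM. The log2 fold change in DIP2C+/- was 0.92 ± 0.45 (SE) with H9-A4 (edgeR adjusted p = 0.459) and 1.07 ± 0.40 (SE) without it (edgeR adjusted p = 0.133). In DIP2C-/- it was 0.14 ± 0.51 (SE), with an edgeR adjusted p of 0.934.

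SRXN1 encodes sulfiredoxin, which repairs over-oxidised peroxiredoxins. It measured 148.7 and 129.8 CPM in the parental samples, 151.1 in E3, 160.2 in C10, 200.4 in G1-A5, 237 in A9-A12, 179.4 in A6-C9, 153.2 in F6-A7 and 136.5 in H9-A4. As for TXNRD1, A9-A12 and G1-A5 were highest, and the 6 clones other than H9-A4 were above both parental samples. Without H9-A4 its log2 fold change in DIP2C+/- was 0.47 ± 0.17 (SE), with an edgeR adjusted p of 0.129.

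TXN encodes thioredoxin itself, and it was the member whose parental samples differed most, at 187.2 and 292.8 CPM. The clones measured 217.8 in E3, 237.3 in C10, 295.3 in G1-A5, 228.6 in A9-A12, 242.7 in A6-C9, 233.9 in F6-A7 and 182.3 in H9-A4. Of the 7 clones 5 lay between the parental samples, and the edgeR log2 fold change for the average was -0.04 ± 0.20 (SE), with an adjusted p of 0.956. The annotation holds 7 pseudogenes of TXN, with which reads can be shared.

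NQO1 encodes the quinone reductase that is often used as a readout of NRF2. It lies on chromosome 16 from 69740899 to 69760571 (GRCh37, minus strand). Its level was 138.5 and 145.4 CPM in the parental samples, 106.5 in E3, 94.8 in C10, 102.6 in A6-C9 and 106.9 in F6-A7, and 211.6 in G1-A5, 177.9 in A9-A12 and 159.2 in H9-A4. The clones fell on either side of the narrow parental range, with 4 below it, both DIP2C-/- clones among them, and 3 above it. The log2 fold change was -0.50 ± 0.31 (SE) in DIP2C-/- and 0.10 ± 0.26 (SE) in DIP2C+/-, with edgeR adjusted p-values of 0.528 and 0.924.

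**Figure D2:**
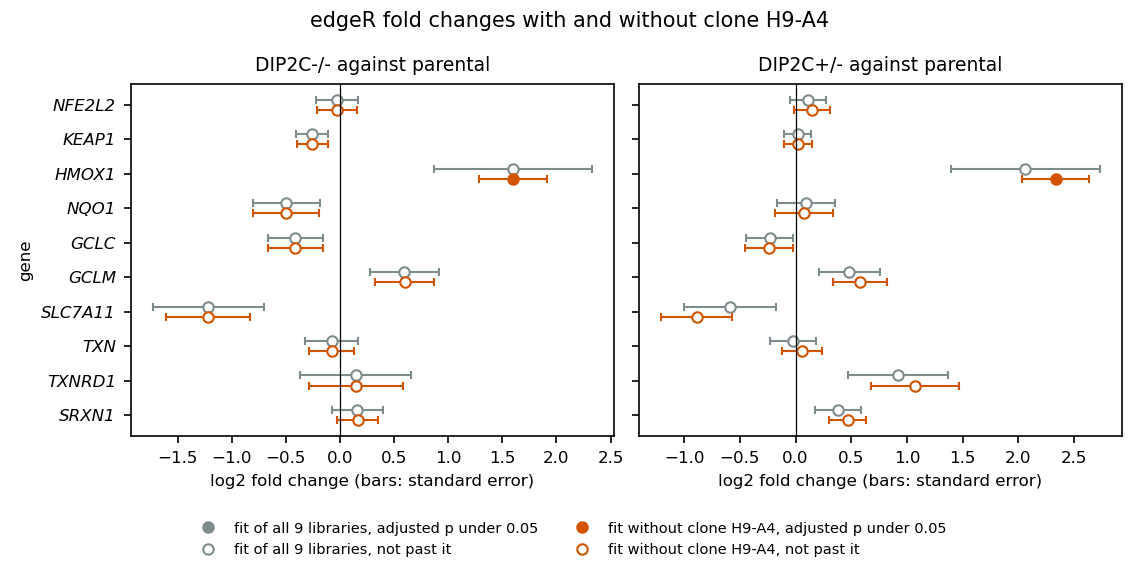
edgeR log2 fold change of each gene in DIP2C-/- (left) and DIP2C+/- (right) against parental RKO, in the fit of all 9 libraries (grey) and without H9-A4 (orange); bars are standard errors, and a filled point has an adjusted p-value under 0.05. HMOX1 without H9-A4, at 1.60 and 2.34, is the filled point in both panels.

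The fit of only the DIP2C-/- and parental libraries took the spread from these 4 alone. It called 4 of the 10 genes, beside a background of 12.6% of 14381 genes. Of the other listed genes, targets of ATF4 included, it called 14 of 63. HMOX1 (log2 fold change 1.58, edgeR adjusted p = 0.00524) and GCLM (0.58, edgeR adjusted p = 0.0394) were higher. SLC7A11 (-1.23, edgeR adjusted p = 0.00157) and NQO1 (-0.51, edgeR adjusted p = 0.0369) were lower. Of these genes, only HMOX1 was also called in DIP2C-/- in the fit of 8 libraries without H9-A4. The DIP2C-/- clones lay close together in GCLM, NQO1 and SLC7A11, but not in HMOX1, and the DIP2C+/- clones, which enter the other fits, were far apart in all 4.

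Single clones, each 1 library and so without a test, were compared with the parental mean as differences of log2 CPM, 2 being the prior count. At a limit of 2-fold, E3, C10, F6-A7 and A6-C9 each had HMOX1 higher and SLC7A11 lower, beside 14.4%, 11.9%, 14.1% and 14% of all genes past that limit in the same clones. A9-A12 and G1-A5 each had HMOX1 and TXNRD1 higher, beside 13.9% and 12%. H9-A4 had 0 of the 10 past 2-fold, beside 7.44%. SLC7A11 in A9-A12, at -0.97, fell just short of the limit, and in G1-A5 it was at -0.12. The spread of a gene between the parental samples gives a scale for these values: it was 0.23 in the median of the 10 genes, from 0.05 for NFE2L2 to 0.64 for TXN, and 0.24 in the median of all genes tested.

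**Figure D3:**
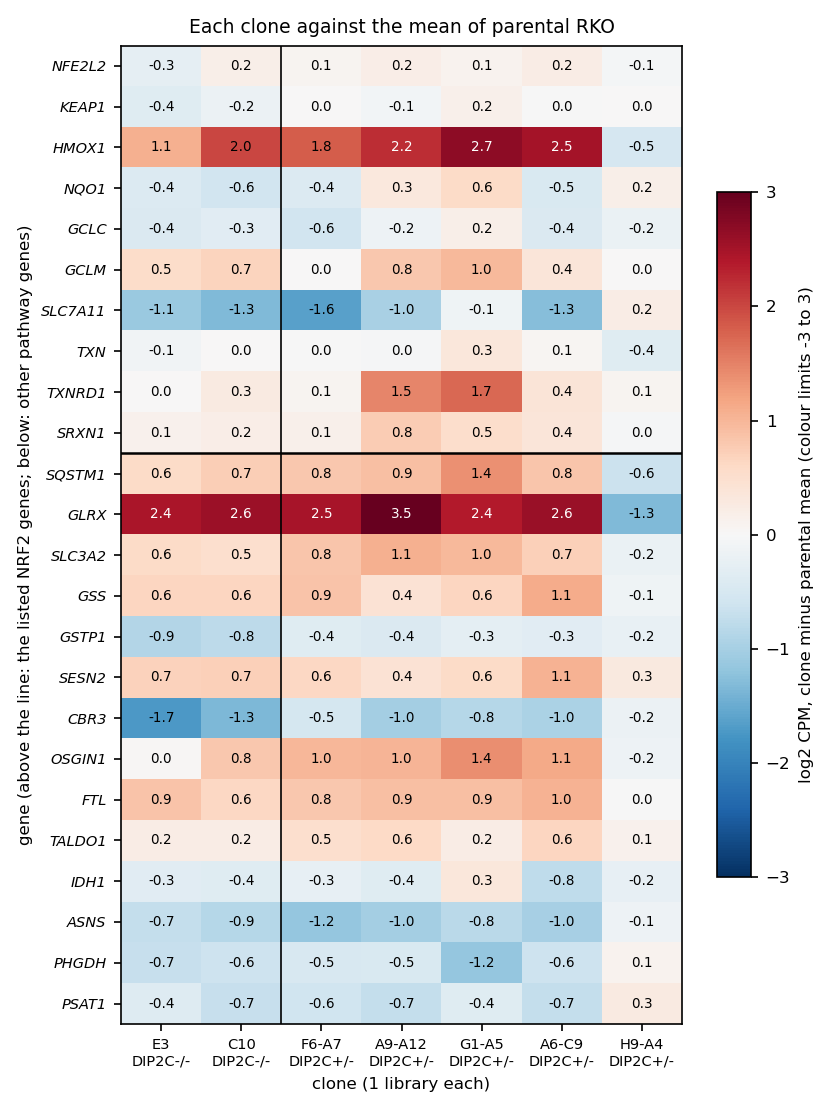
log2 CPM of each clone (columns) minus the parental mean, from -3 in blue to 3 in red. The 10 genes are above the line and the named genes of the other lists, ATF4 targets included, below it. HMOX1 and GLRX are red in all clones but H9-A4, and the clones A9-A12 and G1-A5 share the high TXNRD1.

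Within the DIP2C+/- group, F6-A7 and A6-C9 thus passed 2-fold for the same genes as the DIP2C-/- clones, and A9-A12 and G1-A5 for TXNRD1 in place of SLC7A11. NQO1 was below both parental samples in E3, C10, F6-A7 and A6-C9 and above both in A9-A12, G1-A5 and H9-A4. HMOX1 and TXNRD1 did not rank the clones alike, since A6-C9 had 202.4 CPM of HMOX1, the second highest level, with TXNRD1 at 579.7, while A9-A12 had 165.4 and 1236. Across the 9 libraries, the Pearson r of log2 CPM was 0.89 for TXNRD1 and SRXN1, 0.81 for GCLM with each of TXNRD1 and SRXN1, 0.79 for HMOX1 and SRXN1, 0.75 for HMOX1 and GCLM, 0.65 for HMOX1 and TXNRD1, and -0.64 for HMOX1 and SLC7A11. NQO1 followed GCLC (0.71), SLC7A11 (0.69) and TXNRD1 (0.68), but not HMOX1 (-0.08). These values are descriptions over 9 libraries that share the parental samples and a common derivation.

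**Figure D4:**
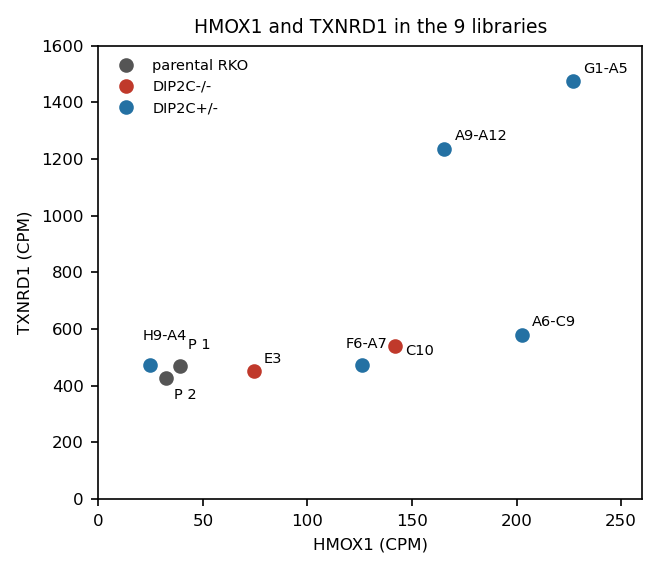
CPM of HMOX1 (x axis) against CPM of TXNRD1 (y axis) in the 9 libraries, 1 point each. H9-A4 lies beside the parental samples, E3, F6-A7, C10 and A6-C9 extend along the HMOX1 axis with TXNRD1 at 450.4 to 579.7 CPM, and A9-A12 and G1-A5 are high in both.

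Outside the list, the genes most like HMOX1 across the 9 libraries were RIPK2, CDKN1A and MEF2D, with a Pearson r of log2 CPM of 0.983, 0.982 and 0.980 among 9586 genes of at least 10 CPM. CDKN1A, the cell cycle inhibitor p21, measured 96.2 and 94.2 CPM in the parental samples, 60.2 in H9-A4 and 223 to 413.9 in the other clones, with G1-A5 highest for it as for HMOX1. The genes most like SLC7A11 were SUN1 (0.980), NUP43 (0.978) and TMTC3 (0.978). Those most like NQO1 were PIGC (0.956), SLC29A2 (0.947) and AAGAB (0.946).

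CD68 moved with HMOX1 too. It was at 85.9 and 86.1 CPM in the parental samples, 464.8 to 673.6 in 6 clones and 16.25 in H9-A4. CD68 stands in a list of 4 leukocyte markers, of which it alone reached 1 CPM. The summed level of the list was 86.9 to 87.0 CPM in the parental samples, 466 to 674.5 in the 6 clones and 17.5 in H9-A4. Without CD68 the sum of PTPRC, CD3E and CD14 was 0.460 to 1.28 CPM in all 9 libraries, so these markers were near 0.

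Compared per length, the levels of the 10 genes in parental RKO ran from 325.6 CPM per kb of the canonical transcript for TXN through 115.9 for TXNRD1, 65.0 for KEAP1, 56.3 for NQO1, 55.1 for SRXN1, 23.0 for HMOX1, 17.4 for GCLC and 13.5 for NFE2L2 to 7.61 for SLC7A11 and 7.13 for GCLM. The parental samples of NQO1 and SRXN1 overlapped in this order, as did those of SLC7A11 and GCLM. The modifier subunit thus stood lower per length than its catalytic partner.

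The wider pathway was described by lists of 70 other genes, 10 of them a list of ATF4 and its targets. Of the 70 genes, 64 passed the filter on low counts. AKR1B1, AKR1B10, AKR1C1, AKR1C2 and AKR1C3, aldo-keto reductases that are frequent NRF2 targets, and ME1, which makes NADPH, did not pass it. With all 9 libraries, 0 of the 64 were called by edgeR for the average of the clones, beside 0.18% of all genes tested. At an unadjusted edgeR p under 0.05 there were 14, beside 13.4% of all genes tested. DESeq2 called 1, CBR3, beside 304 of all genes tested. Without H9-A4, 12 of the 64 were called, 7 higher and 5 lower, beside the background of 8.95%. Of the 5 lower, 3 were from the ATF4 list. The median log2 fold change of the 64 was 0.01, as it was for all genes tested.

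The most changed of them was GLRX, a glutaredoxin that uses glutathione to reduce proteins. It measured 29.1 and 38.2 CPM in the parental samples, 181.7 in E3, 198.3 in C10, 174 in G1-A5, 385.3 in A9-A12, 202.4 in A6-C9, 186.7 in F6-A7 and 13.25 in H9-A4. As for HMOX1, 6 clones were above both parental samples and H9-A4 below them. The log2 fold change for the average was 2.51 with H9-A4 (edgeR adjusted p = 0.313) and 2.71 ± 0.32 (SE) without it (edgeR adjusted p = 0.000426).

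In the glutathione list of 12 genes, SLC3A2, GSS and GSTP1 were called beside GLRX without H9-A4. These were 4 of 12, beside 8.95% of all genes tested in that fit. SLC3A2, the heavy chain that pairs with SLC7A11 in the xc- exchanger, rose (log2 fold change 0.76, edgeR adjusted p = 0.0116). SLC7A11 itself had the lowest log2 fold change of the 10 genes in that fit, -0.998, and was not called. SLC3A2 measured 91.5 and 127.9 CPM in the parental samples, 94.8 in H9-A4 and 153.3 to 225.3 in the other clones. GSS, glutathione synthetase, rose by 0.73 (edgeR adjusted p = 0.0305). GSTP1, a glutathione transferase, fell by 0.54 (edgeR adjusted p = 0.0342), with 318.8 and 470.4 CPM in the parental samples and 211.3 and 224.9 in the DIP2C-/- clones. The DIP2C+/- clones had 288.5 to 333.8 CPM of GSTP1, and H9-A4 overlapped with the parental samples. The GSTP1 and SLC3A2 estimates leaned on single parental samples. In fits that kept H9-A4 and left out 1 parental sample, the average for GSTP1 was -0.76 without the first and -0.19 without the second. That for SLC3A2 was 0.44 without the first. DESeq2 with all 9 libraries called GSTP1 lower in DIP2C-/- (adjusted p = 0.00758).

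Of the regulators, SQSTM1 was the 1 of 9 called without H9-A4, beside 8.95% of all genes tested. It encodes p62, an autophagy receptor that binds KEAP1, and it measured 186.7 and 219.6 CPM in the parental samples, 130.3 in H9-A4 and 301.2 to 519.9 in the other clones, with G1-A5 highest. Its log2 fold change was 0.87 ± 0.17 (SE), with an edgeR adjusted p of 0.00886. CUL3, BACH1 and the small MAF genes were among the 8 that were not called. MAFG lay above both parental samples in all 7 clones, while 11% of the genes tested had all 7 on 1 side. BACH1 lay below both in 6 clones and above both in 1, and MAFF above both in 6 and below both in 1. CUL3 and MAFK each had 3 clones above both and 4 below.

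In the haem and iron list FTL, the light chain of ferritin, was called alone of 9 genes without H9-A4, beside 8.95% of all genes tested. It measured 2242 and 1828 CPM in the parental samples, 2005 in H9-A4 and 3125 to 4151 in the other clones. The log2 fold change was 0.85 ± 0.13 (SE), with an edgeR adjusted p of 0.00225, and FTL has 16 annotated pseudogenes that can share its reads. In the thioredoxin list of 11, SESN2, a stress-induced sestrin, was called alone, at 0.69 (edgeR adjusted p = 0.0249), beside the same 8.95%.

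**Figure D5:**
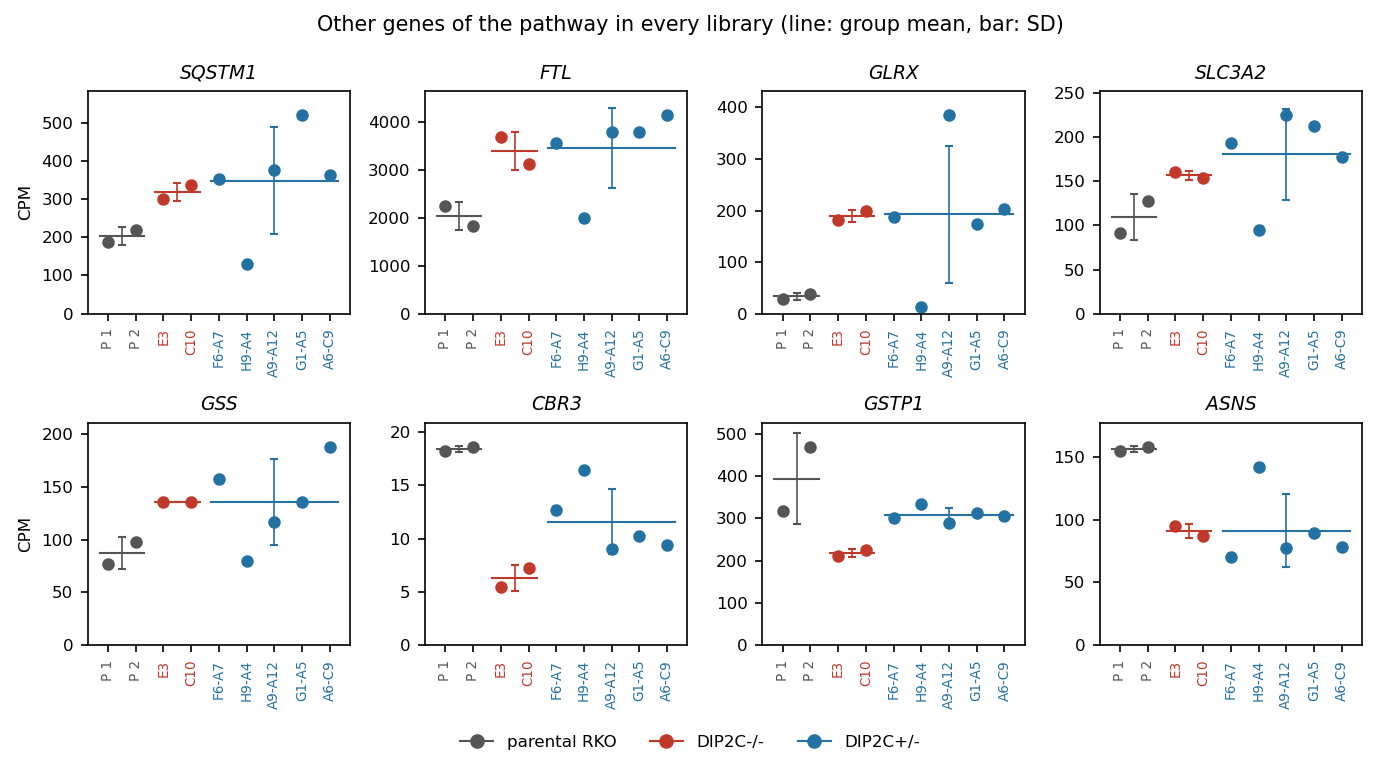
CPM of 8 genes of the other lists in every library, with group means as lines and SD as bars. ASNS is from the list of ATF4 and its targets. H9-A4 lies with the parental samples or beyond them for SQSTM1, FTL, GLRX, SLC3A2 and GSS, while CBR3, GSTP1 and ASNS are lower in the DIP2C-/- clones than in parental RKO.

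In the list of quinone and carbonyl detoxification, 8 of 13 genes passed the filter. Without H9-A4, 2 were called, in opposite directions, beside 8.95% of all genes tested. OSGIN1, an oxidative stress-induced growth inhibitor, rose (log2 fold change 0.92, edgeR adjusted p = 0.0316), with 9.14 and 10.7 CPM in the parental samples, 10.1 in E3 and 17.3 to 26.2 in the other 5 clones besides H9-A4. CBR3, a carbonyl reductase, fell by 1.07 (edgeR adjusted p = 0.00761), from 18.2 and 18.6 CPM in the parental samples to 5.48 in E3 and 7.20 in C10, with 16.4 in H9-A4 and 9.07 to 12.7 in the other DIP2C+/- clones. Its DIP2C-/- clones thus lay below all DIP2C+/- clones, a difference of 0.70 on the log2 scale without H9-A4 that was not called (edgeR adjusted p = 0.679). In the NADPH list 0 of 5 were called by edgeR in either fit or by DESeq2, with 1 at an unadjusted p under 0.05 in each. TALDO1, of the pentose phosphate pathway, had a log2 fold change of 0.41 (edgeR adjusted p = 0.0887) and IDH1 of -0.25 (edgeR adjusted p = 0.571) without H9-A4.

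SLC7A11 is shared with ATF4, the factor of the amino acid response, so ATF4 itself and other targets of it were taken as a list of 10 genes. Without H9-A4, 3 were called for the average of the clones, all lower, beside 8.95% of all genes tested. ASNS, which makes asparagine, was at -0.92 (edgeR adjusted p = 0.00066). PHGDH and PSAT1, enzymes of serine synthesis, were at -0.66 and -0.58 (edgeR adjusted p = 0.0326 and 0.0323). By sign, 4 genes of this list were higher and 6 lower. ATF4 itself was at -0.12 (edgeR adjusted p = 0.71) and DDIT3 at 0.53 (edgeR adjusted p = 0.256). ASNS measured 154.7 and 158.2 CPM in the parental samples, 141.8 in H9-A4 and 70.4 to 94.9 in the other clones, so that the 6 clones did not overlap with the parental samples. The average for PSAT1 with all 9 libraries was -0.43, and -0.225 without the first parental sample. In G1-A5, where SLC7A11 was within the parental range, ASNS was at 89.1 CPM.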

How the data were processed

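RNA of parental RKO cells and of DIP2C knockout clones was sequenced by the authors on the Ion Proton system and aligned to hg19 with TopHat2 2.0.4; gene levels came from Cufflinks (2.2.1 in the submitters' processing notes). As deposited, the values are estimated counts, written from Cufflinks in a way not given in the sources used here: 98.3% to 98.8% of the values under 20 were whole multiples of 1 step per library, within 0.02. Values were rounded to whole numbers, as the design set for estimated counts. Groups came from the labels. The 10 genes and all lists were chosen with earlier results of these data known. Pairs of libraries of 1 group gave a chi-square over its degrees of freedom of 18.0 to 117.7, more than sampling noise.

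Genes were filtered with filterByExpr (15532 kept; 15390 without H9-A4), scaled by TMM factors of 0.945 to 1.05 and tested with edgeR 4.0.16 (R 4.3.3), 1 coefficient per genotype, quasi-likelihood F test, Benjamini-Hochberg over all genes tested, called under 0.05. The average weighted each of the 7 clones equally. DESeq2 1.42.0 was an alternative. The scripts were tested on simulated data. Named genes of the other lists were those called for the average with or without H9-A4, otherwise the 2 of a list with the largest change, at most 4 a list. Like patterns were the 3 highest Pearson r for each of NQO1, HMOX1 and SLC7A11. Gene positions and transcript lengths are from GENCODE on GRCh37, promoters from RefSeq. The counting intervals implied by depth cover counting error only. No sequencing batch or date is in the labels. Some marker genes of the design are not reported here.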

Additional observations from a re-analysis of the deposited data

Results flagged for a closer look

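Of 25 genes screened, 3 had a clone that stood far from the other 4 of the DIP2C+/- group by Dixon's ratio of the gap to the nearest value over the range, and each time the clone was H9-A4. FTL was lowest there, with a ratio of 0.725, at 2005 CPM against 3560 to 4151 in the others. ASNS was highest there, with a ratio of 0.737, at 141.8 CPM against 70.4 to 89.1. PSAT1 was highest there, with a ratio of 0.72, at 233.3 CPM against 118.1 to 150.3. In each of the 3 genes H9-A4 lay nearer to the parental samples than to the other DIP2C+/- clones. The 3 genes share the same libraries, and they were named because they were called once H9-A4 was left out. The rate of about 1 in 20 groups flagged by chance therefore does not apply to them, and the flags are descriptions. Groups of 2 were not screened.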

How the results depend on the processing

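The number of genes called moved with the tool, the libraries fitted and the filter. For the average of the clones (28 genes with all 9 libraries) DESeq2 called 304 and a minimum of 10 counts in all samples left 11. For DIP2C-/- (1 gene) DESeq2 called 297, no filter 3, the minimum of 10 counts 0 and the fit of only the compared groups 1807, and with that fit 4 of the 10 genes were called. For DIP2C+/- (15 genes) DESeq2 called 193, and the minimum of 10 counts and the fit of only the compared groups each called 8. Between the genotypes (0 genes) DESeq2 called 6 and the fit of only the compared groups 1. With libraries scaled by their totals alone, KEAP1 in DIP2C+/- went to -0.0265. The cause was not tested.

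With 1 library left out at a time, the genes called ranged from 1 to 1378 for the average, from 1 to 733 for DIP2C-/-, from 1 to 1224 for DIP2C+/- and from 0 to 3 between the genotypes; each of the 3 highest counts against parental RKO was that without H9-A4. For the average the count was 1 and 2 without the first and the second parental sample, 12 without E3, and 15, 17 and 16 without A9-A12, G1-A5 and A6-C9. For DIP2C+/- it was 1 and 2 without a parental sample, 7 without E3, 8 without C10, 5 without each of F6-A7, A9-A12 and G1-A5, and 3 without A6-C9. For DIP2C-/- it was 2 without the second parental sample, 4 without C10 and 2 without A9-A12. Of the 10 genes 0 to 1 were called in each comparison with parental RKO, the 1 being HMOX1 without H9-A4.

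Small log2 fold changes changed sign with a single library. For the average they ranged from -0.13 to 0.0077 for KEAP1, -0.20 to 0.0116 for NQO1, -0.53 to 0.0040 for GCLC and -0.33 to 0.32 for TXN. For DIP2C-/- they ranged from -0.32 to 0.19 for NFE2L2, -0.38 to 0.27 for TXN, -0.0303 to 0.28 for TXNRD1 and -0.0075 to 0.82 for OSGIN1. For DIP2C+/- they ranged from -0.0476 to 0.0919 for KEAP1, -0.0540 to 0.21 for NQO1, -0.47 to 0.0595 for GCLC and -0.31 to 0.35 for TXN. Between the genotypes they ranged from -0.0744 to 0.43 for NFE2L2, -0.0364 to 0.17 for TXN and -0.27 to 4.15e-05 for GCLM. TXN also took a positive sign without H9-A4, at 0.01 for the average and 0.06 in DIP2C+/-. HMOX1 stayed positive under every alternative run in each comparison with parental RKO. Where 1 sample remained in a group, it was assumed to vary like the other groups. All 70 single-clone values moved by less than the parental SD of the gene when the prior count was 0.5 in place of 2. No paired analysis was possible because only the parental samples carry replicate numbers in the labels. With 2 parental samples, whose spread enters every comparison, changes of the size seen for NFE2L2, KEAP1, GCLC and TXN could not be told from 0.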
